A study of Mus musculus with 6 samples.

Results

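The ER-resident peptidyl-prolyl isomerases were followed in colon epithelium lacking Sel1L. They comprise 8 named genes, the FK506-binding protein genes Fkbp2, Fkbp7, Fkbp9, Fkbp10, Fkbp11 and Fkbp14 and the cyclophilin genes Ppib and Ppic. A gene was included when a probe set of the array was annotated to it alone, and 7 of the 8 were measured among 19936 genes. Fkbp10 was not analysed here. Each of the 7 had 1 such probe set. The 3 knockout arrays came from 8-week-old male C57BL/6J mice labelled Sel1L-delta-IEC, in which floxed exon 6 of Sel1l is removed by Cre expressed from the villin-1 promoter, a promoter active in intestinal epithelial cells. The 3 wild type arrays came from male C57BL/6J mice of the same age, and the labels do not say whether these carried floxed alleles or Cre. Levels are robust multi-array average (RMA) values on the log2 scale. Differences are knockout minus wild type on that scale, with the standard error (SE) of limma's moderated fit over all genes. Genes were called at a Benjamini-Hochberg adjusted p under 0.05. Levels of different genes come from different probes and were not ranked against each other.

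Peptide bonds that precede proline switch slowly between the cis and trans forms, and peptidyl-prolyl isomerases speed this step in protein folding. FK506-binding proteins and cyclophilins are families of such enzymes, named for the immunosuppressants FK506 and cyclosporin that they bind, and members inside the endoplasmic reticulum (ER) act on secretory and membrane proteins beside the chaperone BiP and the protein disulfide isomerases. Sel1L links the ubiquitin ligase Hrd1 to its substrates in ER-associated degradation, and the series concerns the ER stress sensor IRE1α as a protein that this pathway degrades.

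Array medians lay between 6.32 and 6.36, and array-to-array correlations across genes, which are not independent replicates, were 0.993 to 0.997. Sel1l read 8.70, 9.06 and 8.66 in knockout arrays and 9.45, 9.67 and 9.54 in wild type arrays. The knockout arrays were all lower, with a difference of -0.74 ± 0.11 (SE, limma adjusted p = 0.018), and the exact two-sided permutation p was 0.1, the smallest that 3 arrays against 3 can give. The probe set was not mapped to the deleted exon. Marker lists were checked for dim probe sets against the array median of 6.34, which does not measure cell numbers. The markers above it were 10 of 10 for colon epithelium, 7 of 7 for goblet cells, 8 of 12 for fibroblasts, 1 of 6 for smooth muscle, 1 of 6 for endothelium, 1 of 8 for B and plasma cells, 1 of 7 for macrophages and dendritic cells and 1 of 5 for T cells. No gene of these lists was called by limma. In the epithelial list 5 of 10 changes were above 0, with a median of -0.028. Epcam and Cdh1 each differed by -0.23 ± 0.058 (limma adjusted p = 0.12 each), and Cdx2 by 0.28 ± 0.088 (limma adjusted p = 0.20). The genotypes were apart for each of these genes. Whether each array is a separate mouse is not stated in the labels, and the p-values reflect variation among the arrays, which may be technical.

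Of the 7 isomerase genes, Fkbp11 and Fkbp2 rose in the knockout, and none fell. Over all genes 1.63% were called, 0.918% higher and 0.712% lower. All 7 fitted changes were above 0, as were those of 57.2% of all genes. Their median was 0.24, against 0.019 over all genes, and they ran from 0.055 for Fkbp9 to 0.65 for Fkbp11. In Fkbp11, Fkbp2, Ppic and Fkbp7 every knockout array lay above every wild type array, which held for 11.4% of all genes. The same 4 genes were higher at an unadjusted limma p under 0.05, against 7.72% of all genes. The calls of Fkbp11 and Fkbp2 were both lost in some fits with an array left out, as given with each gene. Both were also lost with the replicate number as a block (adjusted p = 0.061 and 0.079) and when all probe sets were tested together (adjusted p = 0.077 and 0.11), and that of Fkbp2 with median centring of the arrays (adjusted p = 0.063).

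**Figure D1:**
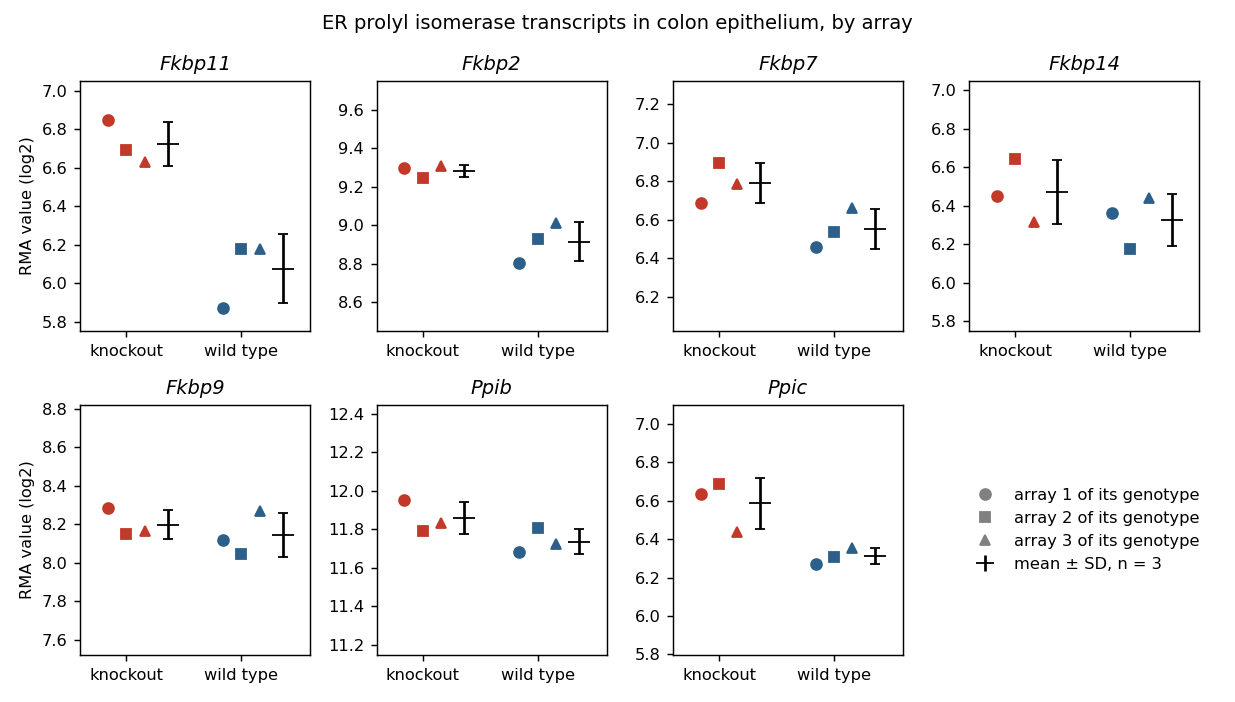
RMA values (log2) of the 7 isomerase genes, with each panel spanning the same log2 range. Coloured symbols are arrays (knockout left, wild type right), and the black bar is the mean ± SD of 3 arrays; knockout and wild type arrays are apart for Fkbp11, Fkbp2, Fkbp7 and Ppic and overlap for Fkbp14, Fkbp9 and Ppib.

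Fkbp11 encodes a membrane-anchored FK506-binding protein that is abundant in secretory tissues and in plasma cells. Its level was 6.85, 6.69 and 6.63 in knockout arrays, against 5.87, 6.18 and 6.18 in wild type arrays. The gap between the lowest knockout and the highest wild type array was 0.45, wider than the range within either genotype. The means were 6.72 ± 0.11 in the knockout and 6.08 ± 0.18 in wild type (SD, n = 3 each). The difference of 0.65 ± 0.10 (SE) corresponds to a 1.57-fold higher level in the knockout, with a 95% interval of 1.34 to 1.84 (limma adjusted p = 0.021). Only 0.346% of all genes had a larger rise. The call was kept without knockout array 3 or wild type array 3. It was lost without knockout array 1, knockout array 2, wild type array 1 or wild type array 2, with adjusted p of 0.088, 0.070, 0.052 and 0.055, while the difference stayed between 0.54 and 0.70.

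Fkbp11 stood close to the array median, so its probe set gives a dim signal, and RMA values near that level tend to understate fold changes. The same limit holds for Ppic, Fkbp14 and Fkbp7, with wild type means of 6.31, 6.33 and 6.55. In the B and plasma cell list 0 of 8 genes were called by limma and 0 had an unadjusted p under 0.05, with a median change of -0.12. Its mean deviation from the wild type means overlapped between genotypes, at -0.14, -0.11 and -0.044 in knockout arrays and 0.011, -0.11 and 0.10 in wild type arrays. Its summed linear level was 1342 to 1395 in knockout and 1450 to 1482 in wild type arrays, of which Sdc1 alone made up 77.8% to 81.7%. In the list of goblet cells, the mucus-secreting cells of this epithelium, 0 of 7 genes were called. At an unadjusted limma p under 0.05, which 13.3% of all genes reached in either direction, 1 was higher and 1 lower. Those were Spdef, a goblet cell transcription factor (0.28 ± 0.072, adjusted p = 0.12), and the mucin gene Muc4 (-0.44 ± 0.091, adjusted p = 0.060). The goblet list had a median of -0.037, and its summed level overlapped at 42959 to 44580 in knockout and 42895 to 44493 in wild type arrays. The part of these cells in the level of Fkbp11 was not tested.

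Fkbp2 encodes a small soluble FK506-binding protein of the ER lumen. It read 9.30, 9.25 and 9.31 in knockout arrays and 8.81, 8.93 and 9.01 in wild type arrays. The knockout arrays agreed closely, with a mean of 9.28 ± 0.031, and lay at least 0.24 above the wild type arrays, whose mean was 8.92 ± 0.10 (SD, n = 3 each). The difference was 0.37 ± 0.069 (SE), or 1.29-fold with a 95% interval of 1.16 to 1.44 (limma adjusted p = 0.043). This call lay near the threshold. Among the 6 fits with an array left out it held only without wild type array 3 (adjusted p = 0.041). It was lost without knockout arrays 1, 2 and 3 and wild type arrays 1 and 2, with adjusted p of 0.15, 0.11, 0.13, 0.14 and 0.12, and the difference ran from 0.31 to 0.42.

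**Figure D2:**
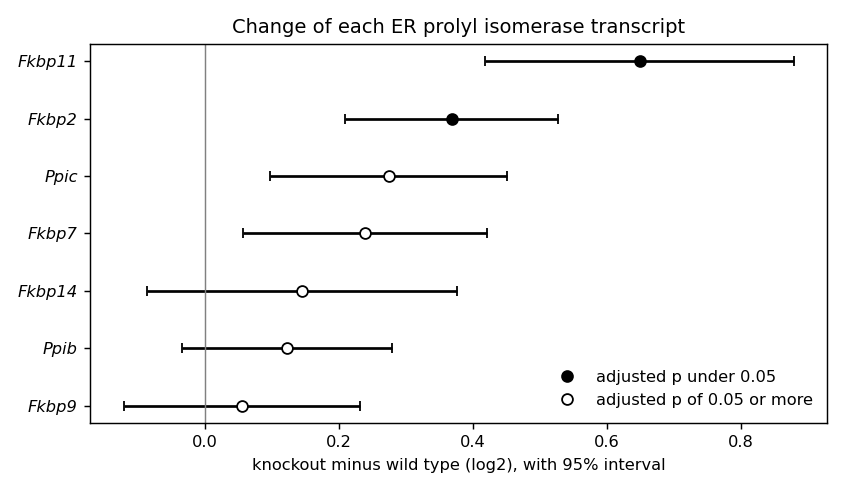
Knockout minus wild type (log2) of each isomerase gene, with the 95% interval of limma's moderated fit. Filled points are called at an adjusted p under 0.05; the intervals of Fkbp11, Fkbp2, Ppic and Fkbp7 lie above 0, and those of Fkbp14, Ppib and Fkbp9 include 0.

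The promoters of Fkbp11 and Fkbp2 are shown as those of the called genes, and that of Ppib as one with the same short motif and no call. Of the 2 Fkbp11 windows, the second is shown because it holds matches, and the first held none of the motifs listed next. RefSeq windows of GRCm38.p6, from 250 bases before to 50 after an annotated start site, were matched by symbol for 6 of the 7 genes, with 10 windows in all. Both strands were searched for the ER stress element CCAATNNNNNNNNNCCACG, the ER stress element II ATTGGNCCACG, the unfolded protein response element TGACGTGA or TGACGTGG, the amino acid response element TGATGNAA, and the XBP1 core ACGTG, which lies within the third of these. Capitals mark the XBP1 core or its reverse complement. Each sequence runs 5′ to 3′ on the strand of its gene.
Fkbp11, second start, chr15:98727578-98727877, minus strand: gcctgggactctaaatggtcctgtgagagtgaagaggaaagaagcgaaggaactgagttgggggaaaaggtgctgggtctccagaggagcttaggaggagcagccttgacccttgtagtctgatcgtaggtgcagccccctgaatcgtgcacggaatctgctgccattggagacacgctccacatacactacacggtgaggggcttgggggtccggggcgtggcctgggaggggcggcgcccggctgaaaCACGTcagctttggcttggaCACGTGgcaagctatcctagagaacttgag
Ppib, chr9:66059919-66060218, plus strand: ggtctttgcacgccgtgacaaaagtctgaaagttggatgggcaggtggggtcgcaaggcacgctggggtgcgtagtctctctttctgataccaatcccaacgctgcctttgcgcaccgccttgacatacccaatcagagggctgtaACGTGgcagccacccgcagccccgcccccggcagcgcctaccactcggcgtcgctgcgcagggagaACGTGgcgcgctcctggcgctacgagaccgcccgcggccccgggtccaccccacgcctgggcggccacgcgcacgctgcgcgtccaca
Fkbp2, first start, chr19:6980415-6980714, minus strand: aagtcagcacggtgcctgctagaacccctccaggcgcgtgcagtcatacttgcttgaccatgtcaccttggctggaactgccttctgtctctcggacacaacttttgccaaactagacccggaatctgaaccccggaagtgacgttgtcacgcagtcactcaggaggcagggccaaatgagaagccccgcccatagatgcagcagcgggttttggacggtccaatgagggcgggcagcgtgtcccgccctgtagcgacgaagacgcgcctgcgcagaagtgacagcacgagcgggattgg

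None of the 10 windows matched the ER stress element, which 0.119% of 32851 windows of that length in the RefSeq table held. None matched the ER stress element II (0.0365% of all windows), the unfolded protein response element (1.12%) or the amino acid response element (3.97%). The XBP1 core was found in 4 of the 10 windows, against 19.6% of all windows, and these belonged to Fkbp11, Ppib, Fkbp9 and Fkbp14. In the second Fkbp11 window it began at the start site itself and again at base 21, where CACGTG reads as the core on both strands and counts as 2 overlapping matches. In Ppib it began at positions -104 and -38 relative to the start site. No window of Fkbp2, of its 3 annotated starts, and no window of Fkbp7 held any of these motifs. A match is a run of letters, and binding was not measured.

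**Figure D3:**
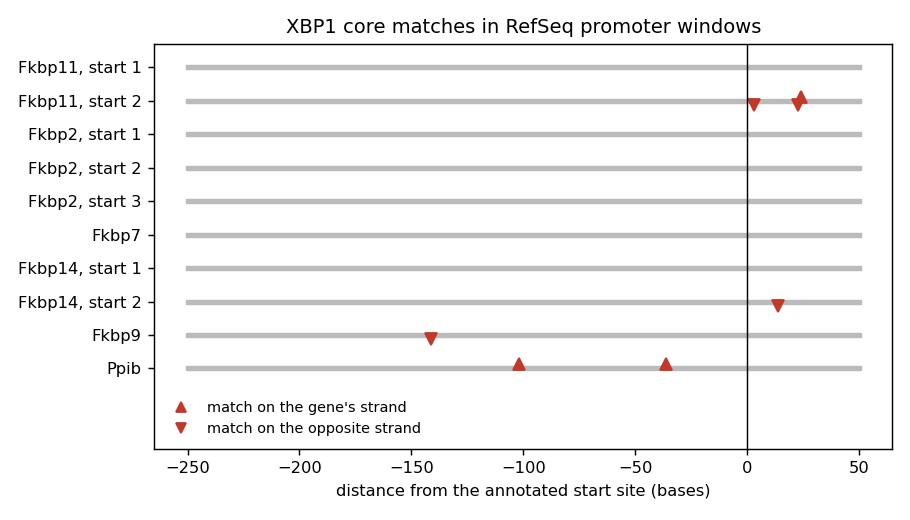
Matches to the XBP1 core in the 10 RefSeq promoter windows, by distance from the annotated start site in bases; grey bars are the windows and triangles the matches on either strand. Fkbp11, Ppib, Fkbp9 and Fkbp14 each have 1 window with a match, and the 3 windows of Fkbp2 have none.

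Fkbp7, Fkbp14 and Fkbp9 encode ER-lumen FK506-binding proteins that also carry calcium-binding EF-hand motifs. Fkbp7 binds BiP. It read 6.69, 6.90 and 6.78 in knockout arrays and 6.46, 6.53 and 6.66 in wild type arrays. The genotypes were apart by 0.029 only, less than the spread within either. The difference of 0.24 ± 0.079 was not called (limma adjusted p = 0.23). Its 95% interval was 1.04- to 1.34-fold.

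Fkbp14, whose human counterpart is mutated in a form of Ehlers-Danlos syndrome, read 6.45, 6.64 and 6.32 in knockout arrays and 6.36, 6.18 and 6.44 in wild type arrays. The genotypes overlapped. The difference was 0.14 ± 0.10 (limma adjusted p = 0.61), and the 95% interval of 0.942- to 1.30-fold is wide. With an array left out the difference ran from 0.058 (without knockout array 2) and 0.070 (without wild type array 2) to 0.22 (without knockout array 3), never called.

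Fkbp9, a larger member with repeated isomerase domains, read 8.28, 8.15 and 8.17 in knockout arrays and 8.12, 8.05 and 8.27 in wild type arrays. Here too the genotypes overlapped, with wild type array 3 above 2 of the knockout arrays. The difference was 0.055 ± 0.077 (limma adjusted p = 0.83), with an interval of 0.919- to 1.17-fold. It was 0.013 without knockout array 1, 0.0050 without wild type array 2 and 0.12 without wild type array 3, and not called in any of these fits.

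Ppib encodes cyclophilin B, the abundant cyclophilin of the ER lumen, which also belongs to the collagen prolyl 3-hydroxylation complex. It read 11.95, 11.79 and 11.83 in knockout arrays and 11.68, 11.81 and 11.72 in wild type arrays. Knockout array 2 lay just below wild type array 2, so the genotypes overlapped. The difference was 0.12 ± 0.068 and was not called (limma adjusted p = 0.51), with an interval of 0.976- to 1.21-fold. Without knockout array 1 it was 0.075, also not called.

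Ppic encodes cyclophilin C, a related cyclophilin of the secretory pathway. It read 6.64, 6.68 and 6.43 in knockout arrays and 6.27, 6.31 and 6.35 in wild type arrays. The genotypes were apart by 0.081, and knockout array 3 was the lowest of its genotype. The difference was 0.27 ± 0.077, or 1.21-fold with an interval of 1.07 to 1.37, and was not called (limma adjusted p = 0.16). Without knockout array 3 it was 0.35, still not called (adjusted p = 0.080).

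Across the 7 genes the arrays of a genotype differed in rank. Wild type array 1 was the lowest wild type array in 5 of the 7 genes and wild type array 3 the highest in 6. Among knockout arrays, arrays 1 and 2 were each the highest in 3 genes. The median deviation of the 7 genes from their wild type means was 0.22, 0.33 and 0.12 in knockout arrays and -0.054, -0.0029 and 0.10 in wild type arrays, so knockout array 3 and wild type array 3 came close. The difference in Fkbp11 exceeded that in each other isomerase gene by 0.28 (Fkbp2) to 0.59 (Fkbp9), and that in Fkbp2 exceeded those in Ppib and Fkbp9 by 0.25 and 0.31. The within-array difference of 2 isomerase genes did not overlap between genotypes in 9 of 21 pairs, including all 6 pairs with Fkbp11. These pairs share genes, and the share over other pairs of genes was not computed. The smallest exact two-sided permutation p over arrays was 0.1 (0.23 adjusted over the pairs). Since 0.1 is the smallest this design allows, no pair could reach the threshold. This test therefore cannot decide whether the changes differ from each other.

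**Figure D4:**
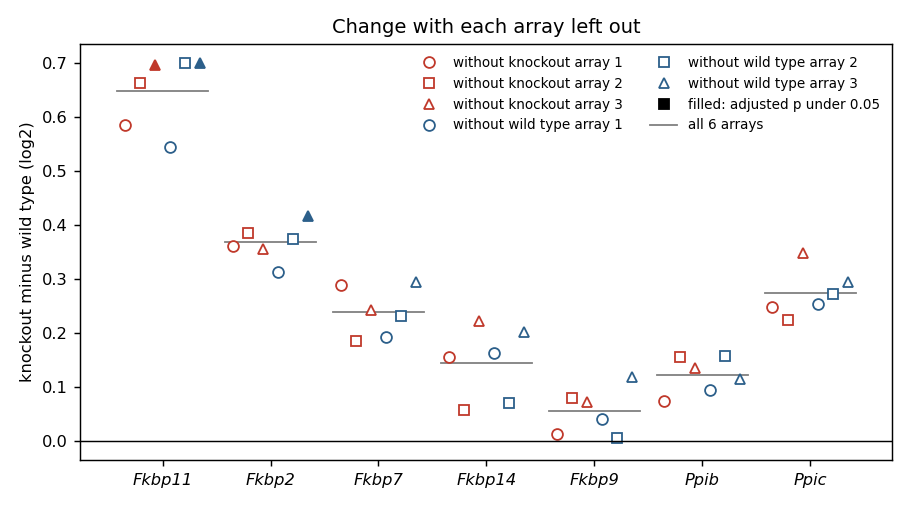
Knockout minus wild type (log2) of each isomerase gene with each array left out in turn; grey lines give the value from all 6 arrays and filled symbols an adjusted p under 0.05. All values lie above 0, and filled symbols occur 2 times for Fkbp11 and 1 time for Fkbp2.

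Other genes placed these values in context. Isomerases outside the ER lumen, of the same families and the parvulin family, had 0 of 24 measured genes called by limma and a median of 0.0036. At an unadjusted limma p under 0.05, 2 were higher and 0 lower, against 7.72% of all genes higher and 13.3% in either direction. The smallest p values were those of Nktr, a cyclophilin-related nuclear protein (0.22 ± 0.068, adjusted p = 0.20), and of Fkbpl, an FKBP-like protein (0.21 ± 0.079, adjusted p = 0.29).

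ER chaperones and folding enzymes that share complexes or substrates with these isomerases had a median of 0.63. Of these 12 genes 9 were called higher and 0 lower, against 0.918% and 0.712% of all genes. They included Sdf2l1, a BiP complex component (1.17 ± 0.069, adjusted p = 0.00045), the disulfide isomerase gene Pdia6 (0.94 ± 0.075, adjusted p = 0.0026), Hyou1, a large ER chaperone (0.87 ± 0.073, adjusted p = 0.0026), and Hsp90b1, which encodes GRP94 (0.68 ± 0.068, adjusted p = 0.0064). The changes in that list ran from 0.20 for Canx to 1.17 for Sdf2l1. The change of Fkbp11 was near the list median, and those of the other 6 isomerase genes lay below that median. Of these, the changes of Fkbp2, Ppic and Fkbp7 were within the range of the list, and those of Fkbp14, Ppib and Fkbp9 were below it.

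Proteins that modify or chaperone collagen beside Ppib and Fkbp10 had 0 of 13 genes called by limma and a median of 0.031. At an unadjusted limma p under 0.05, 3 were higher and 2 lower, against 13.3% of all genes in either direction and 7.72% higher. P3h1, the prolyl 3-hydroxylase that works with cyclophilin B, differed by 0.23 ± 0.083 (adjusted p = 0.27), and Plod3, a lysyl hydroxylase, by -0.19 ± 0.063 (adjusted p = 0.23). Several isomerases of the ER are abundant in fibroblasts. In the fibroblast list 0 of 12 genes were called and 0 had an unadjusted p under 0.05, with a median change of 0.0010. The summed linear level overlapped at 1061 to 1185 in knockout and 938 to 1239 in wild type arrays. Fn1, the gene with the highest mean linear level in this sum, varied widely. Its log2 SD was 1.09 among wild type and 0.22 among knockout arrays. Fewer cells of a type and less RNA per cell cannot be told apart in these bulk samples.

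**Figure D5:**
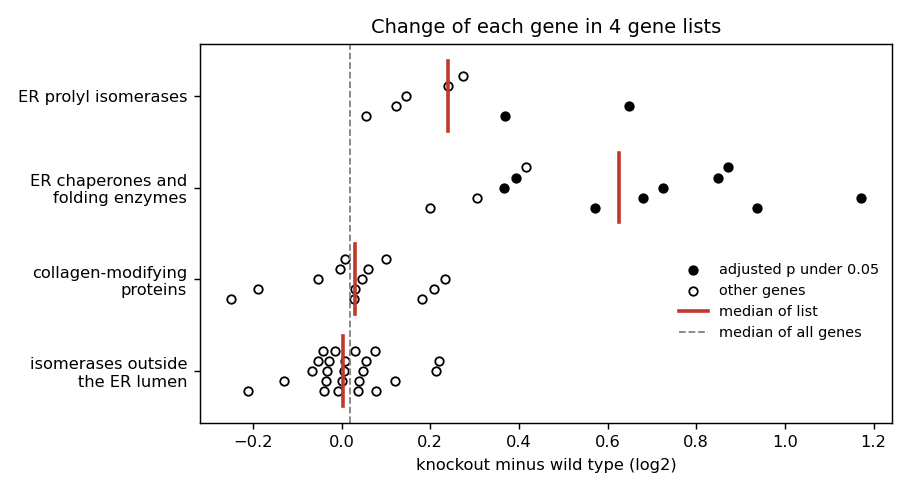
Knockout minus wild type (log2) of each gene in 4 lists. Filled points are called, red bars are list medians and the dashed line is the median of all genes; 2 of 7 ER isomerases and 9 of 12 ER chaperones and folding enzymes are called, and no gene of the other 2 lists.

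The genes whose levels moved most like those of the called isomerases were found from deviations from each gene's own mean over the 6 arrays. Nearest to Fkbp11 were Serp1, which stabilises the translocon under ER stress, Tmem67, a ciliary membrane protein, and Shmt2, a mitochondrial serine hydroxymethyltransferase. Their mean absolute differences from Fkbp11 were 0.046, 0.056 and 0.059, and their own changes 0.69, 0.67 and 0.58. Nearest to Fkbp2 were Isoc2b, the nuclear receptor gene Nr4a2 and Sar1a, a GTPase of the coat that buds vesicles from the ER. Their mean absolute differences were 0.0098, 0.027 and 0.034, and their changes 0.38, 0.37 and 0.33. These are descriptions over 6 arrays that share the genotype difference.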

How the data were processed

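The deposited log2 values of 35556 probe sets were made by the authors with RMA, according to the submitters' processing notes. This method subtracts background, equalises the distributions of the arrays and combines the probes of a set. That the scale is log2 follows from the range of the values, while neither software, build nor probe set definition is given in the sources used here. Of these probe sets 21789 were annotated to 1 gene, 1621 to several and 12146 to none. Only the first kind was used, with symbols updated through RefSeq (GRCm38.p6, used for names). Where a gene had several, the one with the highest mean level was kept. The promoter sequences are RefSeq's, from the same assembly.

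Genotypes were compared by limma 3.58.1 (R 4.3.3) with lmFit and eBayes, two-sided, with no term besides genotype, over all 19936 genes, with no filter on dim genes and Benjamini-Hochberg adjustment. Tables, permutation tests and plots used Python 3.11.15 with pandas 2.3.3, scipy 1.17.1 and matplotlib 3.10.9. On simulated arrays of 19936 genes with normal, independent noise, 95% of genes with a true change of 0.5 were called. Of genes with one of 1, 100% were called, and 5.8% of calls were false. The noise of each gene was drawn with its moderated SD from the main fit, and the same model was refitted. These rates check the code and do not show how often real changes would be called. The number of arrays limits precision, and no hybridisation batch was known here.

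The members, gene lists and tests were chosen with earlier results of these data known. The named genes are all members and Sel1l, up to 4 called genes with the smallest p from each context list or 2 where none was called, and the 3 genes most like each called member. Epcam, Cdh1, Cdx2, Spdef, Muc4, Sdc1 and Fn1 fall outside this rule and were chosen after their values were seen. Alternatives tried were median centring, quantile normalization, a block for the replicate number, filters on the dimmest 25% and 50% of genes, eBayes with a trend or a robust prior, array weights, averaging of probe sets, a test of all probe sets, and each array left out. Protein sequences were not used here.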

Additional observations from a re-analysis of the deposited data

How the results depend on the processing

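All 109 values of the 7 isomerase genes under the 16 alternatives were above 0. The replicate block, the filters, the trend, the robust prior, averaging of probe sets and the test of all probe sets leave each difference unchanged. Their signs were therefore fixed in advance, and the other alternatives reuse the same 6 arrays. The count of called isomerase genes was 2 in the full comparison, 0 with the replicate block and with all probe sets in 1 test, 1 with median centring and without the dimmest 50% of genes, and 0 to 2 with each array left out. The last filter removes Fkbp11, Fkbp14 and Ppic, so fewer genes were tested there. Fkbp11 differed by 0.65 and was not called with the replicate block (adjusted p = 0.061) or with all probe sets (adjusted p = 0.077). Fkbp2 was not called with the replicate block (0.37, adjusted p = 0.079), all probe sets (0.37, adjusted p = 0.11) or median centring (0.35, adjusted p = 0.063). The fit over 35556 probe sets tests more features, and the unadjusted limma p also rose there. It went from 0.00017 to 0.00074 for Fkbp11 and from 0.00062 to 0.0015 for Fkbp2. The causes of the lost calls were not tested. With each array left out the ranges were 0.54 to 0.70 for Fkbp11, 0.31 to 0.42 for Fkbp2, and 0.19 to 0.29 for the median of the isomerase genes. Sel1l lost its call with all probe sets (-0.74, adjusted p = 0.073) and in 4 of 6 fits with an array left out, over a range of -0.87 to -0.67. Of all genes 325 were called, against 217 with the replicate block, 161 with all probe sets, 449 and 598 without the dimmest 25% and 50%, 614 with an intensity trend, and 69 to 303 with an array left out. Same-numbered arrays deviated from their group means with correlations of -0.10, 0.15 and 0.15 across genes. Differently numbered arrays gave -0.26 to 0.12, below both values of 0.15. These values do not settle whether the numbers pair the arrays, and the main fit had no term for them.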
